A study of Homo sapiens with 18 samples.

Results

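AXL, EGFR, NGFR, CD44, WNT5A, SOX9, NT5E and TGFBI are 8 genes used in melanoma research as markers of cells that have lost the melanocyte program and taken on dedifferentiated or neural crest-like features. They were chosen by name, with earlier results of these data known. Each matched 1 row of the 60504 gene rows in the deposited table. All 8 were above the filter on low values, which kept 14936 genes. The cells were A375, an established human melanoma line with an activating BRAF mutation, and the compound was IMD-0354, a small molecule described as blocking IKKβ, a kinase that activates NF-κB. RNA was measured by 3' end sequencing in 18 libraries that formed 6 groups of 3. At 24 h the cells were untreated or had received 0.32, 0.63 or 1.25 µM, and at 48 h they were untreated or had received 0.63 µM. All groups shared the same line, no vehicle is named for the untreated cells, and the design text spells the compound IMD-034. The labels do not tell whether replicate libraries stem from independent cultures. The tests therefore weigh differences against the spread among these samples alone, and that spread may be technical.

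Melanoma cells move between a melanocytic state, held by the transcription factor MITF, and states of low MITF in which receptors such as AXL, EGFR and NGFR are high. The receptor-rich states are known for tolerance of BRAF and MEK inhibitors and for invasive growth, and the neural crest-like state carries NGFR together with SOX10. AXL, NGFR and EGFR are cell surface receptors, CD44 is an adhesion receptor, WNT5A a secreted ligand, SOX9 a transcription factor, NT5E a surface enzyme and TGFBI a matrix protein.

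TPM is a transcript level scaled to a fixed total in each library and divided by transcript length, and it keeps no record of depth, which is unknown. The libraries held 14647 to 17029 genes above 0, and the 153 pairs of libraries had Pearson's r of 0.866 to 0.956 across genes. Untreated 24 h replicate 2 had the lowest mean r with its own group, 0.907. A set of 4 abundant chromosome 21 transcripts took 18.1% ± 3.23 of all TPM in untreated cells at 24 h and 14.2% ± 0.0854 at 0.63 µM (SD, n = 3). At 48 h the set took 23.5% ± 1.05 in untreated cells and 23.6% ± 1.11 at 0.63 µM. A fit rescaled without this set left the calls of the 8 genes as they were, except that CD44 passed at 1.25 µM. Within the set, ENSG00000280614, ENSG00000281181 and ENSG00000280800 had identical means and SDs in every group. These identifiers are therefore not separate measurements. The part of the set in the changes was not tested further. SOX10, which marks the neural crest lineage, was between 8.29 and 34.7 TPM, and the pigment enzyme genes TYR and TYRP1 were at 0 in all 18 libraries. Fibroblast markers summed to at most 0.75 TPM and endothelial markers to at most 0.69 TPM. The leukocyte markers PTPRC and CD3E were at 0 in every library, with a sum of at most 5.54 TPM carried by CD68. At 48 h CD68 rose by 1.85 on the log2 scale (limma, adjusted p = 0.0368), with a list sum of 0 to 2.14 TPM untreated and 2.98 to 5.54 TPM at 0.63 µM, and its part in the results at 48 h was not tested. The keratinocyte list was carried by KRT10, with KRT1 and TP63 at 0, and summed to 39.2 to 45.1 TPM in untreated cells and 72.7 to 103 TPM at 1.25 µM at 24 h; its part in the results was not tested.

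AXL and EGFR were the members that passed the test at 0.63 µM for 24 h. The bases before their start sites are shown for that reason. NGFR, SOX9 and CD44 were also higher there without overlap but did not pass. The sequences are from RefSeq on GRCh38.p14, plus strand, 5′ to 3′, with at most 250 bases before each listed start and without bases that a GENCODE exon of the gene covers. The windows are chr19:41218973-41219202 before AXL, chr19:41226505-41226754 before a start inside AXL, chr7:55018767-55019016 before EGFR and chr7:55109589-55109722 before a start inside EGFR; the last ends 116 bases short of that start. Capitals mark matches on either strand to the motifs TGANTCA (AP-1), GGAATG (TEAD), GGG followed by any 5 bases and CC (NF-κB), CACGTG (E-box of MITF) and TGATGNAA (ATF4-CHOP).
AXL, first start: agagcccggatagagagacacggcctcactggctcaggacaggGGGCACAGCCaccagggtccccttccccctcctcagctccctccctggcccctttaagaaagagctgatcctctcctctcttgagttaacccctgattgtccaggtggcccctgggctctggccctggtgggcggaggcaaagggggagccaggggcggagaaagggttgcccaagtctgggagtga
AXL, inner start: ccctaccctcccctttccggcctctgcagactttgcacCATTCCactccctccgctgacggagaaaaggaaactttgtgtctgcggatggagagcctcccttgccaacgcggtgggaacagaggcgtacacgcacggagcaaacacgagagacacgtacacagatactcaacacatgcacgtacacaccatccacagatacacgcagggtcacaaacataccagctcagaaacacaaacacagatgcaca
EGFR, first start: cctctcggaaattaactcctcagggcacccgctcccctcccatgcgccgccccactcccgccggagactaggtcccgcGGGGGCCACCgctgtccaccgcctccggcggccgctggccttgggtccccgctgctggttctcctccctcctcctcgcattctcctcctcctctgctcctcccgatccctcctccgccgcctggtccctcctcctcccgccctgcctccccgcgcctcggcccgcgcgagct
EGFR, inner start: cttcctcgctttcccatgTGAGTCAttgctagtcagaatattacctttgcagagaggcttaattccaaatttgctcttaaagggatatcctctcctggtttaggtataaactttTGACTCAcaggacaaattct

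The inner EGFR window held a pair of AP-1 matches, the inner AXL window 1 TEAD match, and both first windows 1 NF-κB match each, none overlapping another. The windows before WNT5A and TGFBI are not printed. WNT5A had 3 NF-κB matches (an overlapping pair among them) and TGFBI 1 NF-κB match, and neither gene was called higher. Windows were at hand for only 4 members, AXL, EGFR, WNT5A and TGFBI. NGFR, SOX9, CD44 and NT5E had none, although NGFR and SOX9 were also called higher in some comparisons. Whether the matches go with the calls was not tested. Among 35116 RefSeq windows of 250 bases, 6.57% held the AP-1 letters, 11.9% the TEAD letters, 54.4% the NF-κB letters, 6.34% the E-box and 3.14% the ATF4-CHOP letters. The first AXL window (230 bases), the inner EGFR window (134 bases) and the TGFBI window (157 bases) were shorter and ended before their starts. The shares are thus not matched to them in length or position. These matches describe the letters and not binding.

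Differences between groups are in log2(TPM + 1) and come with the standard error (SE) from 1 limma model over all 18 libraries, and p-values are adjusted by Benjamini-Hochberg over the 14936 genes. This scale understates the change of genes with low values. A gene was called when its adjusted p was under 0.05. The 3 doses at 24 h share their untreated libraries. In bulk RNA, fewer cells of a kind and less RNA per cell cannot be told apart.

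At 0.63 µM for 24 h limma called 2 of the 8 members, AXL and EGFR, both higher, where 2.18% of all genes tested were called. At 1.25 µM for 24 h it called NGFR, EGFR and SOX9 higher and TGFBI lower, where 11.3% of all genes were called. At 0.63 µM for 48 h it called NGFR and EGFR higher, where 7.63% were called. At 0.32 µM it called 0 of 8, against 0.0268% of all genes, and 1 member had an unadjusted p under 0.05. WNT5A, NT5E and CD44 passed against untreated cells at no dose or time. The median difference over the 8 members was 0.62 at 0.63 µM and 0.68 at 1.25 µM at 24 h, beside 0.00 and -0.01 over all genes, and -0.02 at 48 h beside -0.15 over all genes. Because the members were chosen with earlier results of these data known, these shares and medians describe the set and do not test it. Among all genes, 203 were higher and 123 lower at 0.63 µM for 24 h, or 144 and 183 after rescaling without the chromosome 21 transcripts. At 48 h 291 were higher and 849 lower, or 494 and 507 with median-of-ratios scaling and 497 and 550 with quantile normalization, both of which bring the median of all genes to 0.00.

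**Figure D1:**
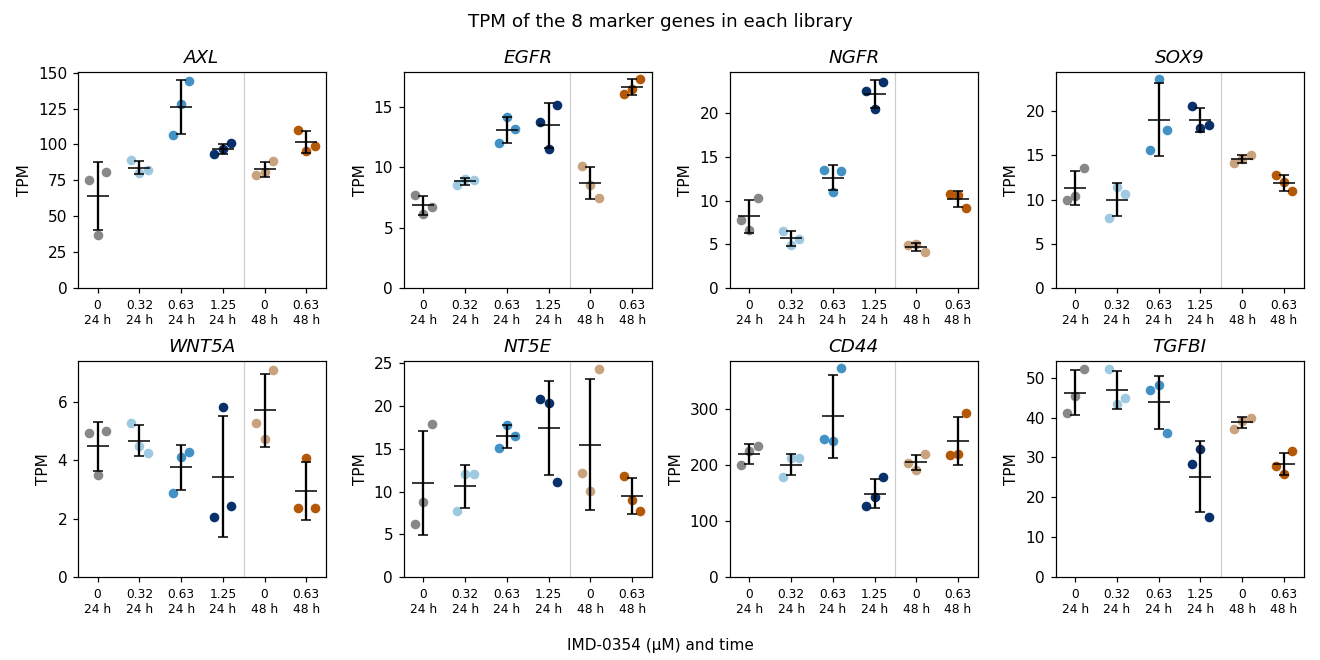
TPM (vertical axis, from 0) of the 8 genes in each library by dose in µM and time (horizontal axis); points are libraries, bars the group mean ± SD (n = 3). NGFR stands apart at 1.25 µM, between 20.5 and 23.6 TPM, EGFR is lowest in untreated cells at 24 h, and NT5E libraries of 1 group spread widely.

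EGFR (ENSG00000146648; GRCh38 chromosome 7, 55019021 to 55211628, plus strand, protein coding) encodes the receptor for epidermal growth factor, which feeds the MAPK pathway. At 24 h it stood at 7.68, 6.10 and 6.73 TPM in untreated cells, at 8.52, 9.07 and 8.98 TPM at 0.32 µM, at 12, 14.1 and 13.1 TPM at 0.63 µM and at 13.7, 11.5 and 15.2 TPM at 1.25 µM. At 48 h it stood at 10.1, 8.55 and 7.49 TPM in untreated cells and at 16.0, 16.5 and 17.4 TPM at 0.63 µM. Each treated group lay above the untreated libraries of its time with no overlap, and the 0.63 and 1.25 µM groups at 24 h overlapped each other. Among all genes, 4.08%, 10.0%, 12.4% and 9.23% were higher without overlap at 0.32, 0.63 and 1.25 µM at 24 h and at 48 h.

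EGFR rose by 0.85 at 0.63 µM for 24 h (SE 0.178, adjusted p = 0.0249), by 0.88 at 1.25 µM (adjusted p = 0.00466) and by 0.87 at 48 h (adjusted p = 0.00667). At 0.32 µM the difference was 0.34 (adjusted p = 0.833). Between 1.25 and 0.63 µM it was 0.03, with a 95% interval from -0.35 to 0.41, and the effects of 0.63 µM at 48 and 24 h differed by 0.02 (interval -0.51 to 0.55). The call at 48 h held in all 16 alternatives run for it and that at 1.25 µM with each library left out. The call at 0.63 µM for 24 h was lost when untreated replicate 2 (0.0714), 0.63 µM replicate 2 (0.0687) or 0.63 µM replicate 3 (0.10) was left out.

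NGFR (ENSG00000064300; chromosome 17, 49495293 to 49515017, plus strand, protein coding) encodes the low-affinity neurotrophin receptor p75, a surface marker of neural crest cells. Untreated cells at 24 h held 7.75, 6.62 and 10.3 TPM, cells at 0.32 µM 6.5, 4.86 and 5.62 TPM, cells at 0.63 µM 13.6, 10.9 and 13.4 TPM and cells at 1.25 µM 22.6, 20.5 and 23.6 TPM. At 48 h untreated cells held 4.91, 5.04 and 4.11 TPM and cells at 0.63 µM 10.7, 10.7 and 9.14 TPM. The order of the means was 1.25 µM, 0.63 µM at 24 h, 0.63 µM at 48 h, untreated at 24 h, 0.32 µM and untreated at 48 h. The 0.63 µM groups were apart from each other in range, while the 48 h one overlapped untreated cells at 24 h, and the lowest groups overlapped each other.

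NGFR rose by 1.35 at 1.25 µM (SE 0.197, adjusted p = 0.000427), from 8.21 ± 1.87 to 22.2 ± 1.59 TPM (SD, n = 3), and by 0.98 at 48 h (SE 0.197, adjusted p = 0.00609), from 4.69 ± 0.504 to 10.2 ± 0.904 TPM. Its difference was 0.58 at 0.63 µM for 24 h (adjusted p = 0.135) with no overlap, and -0.46 at 0.32 µM (adjusted p = 0.780), where all 3 treated libraries lay below the untreated ones. Among all genes 4.59% were lower without overlap at 0.32 µM. Between 1.25 and 0.63 µM the difference was 0.77 (adjusted p = 0.0621), which passed with a pseudocount of 5 TPM (0.0323), a filter at 5 TPM (0.0416) and quantile normalization (0.0428). Untreated cells at 48 h differed from those at 24 h by -0.68 (adjusted p = 0.514). The calls at 1.25 µM and 48 h held with each library left out.

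AXL (ENSG00000167601; chromosome 19, 41219203 to 41261766, plus strand, protein coding) encodes a receptor tyrosine kinase of the TAM family, bound by GAS6. At 24 h its libraries stood at 75.5, 37.1 and 80.4 TPM untreated, 88.9, 80.1 and 82.3 TPM at 0.32 µM, 106, 128 and 144 TPM at 0.63 µM and 93.1, 96.6 and 101 TPM at 1.25 µM. At 48 h they stood at 78.6, 80.8 and 88.7 TPM untreated and 110, 95.5 and 98.6 TPM at 0.63 µM. Untreated replicate 2 at 24 h was the lowest of all 18 libraries for AXL, and the 0.63 µM group at 24 h was the highest of the 6 by its mean. The 0.63 and 1.25 µM groups at 24 h and the 0.63 µM group at 48 h each lay above the untreated libraries of their time.

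AXL rose by 1.03 at 0.63 µM for 24 h (SE 0.219, adjusted p = 0.0269), from 64.4 ± 23.7 to 126 ± 18.9 TPM. This call was lost without 0.63 µM replicate 2 (0.0662) or replicate 3 (0.133). Without untreated replicate 2, the library with the low value, the difference was 0.68 (adjusted p = 0.0332), so the call held at a smaller size. At 1.25 µM the difference was 0.66 (adjusted p = 0.0640), which passed without untreated replicate 1 (0.0440) or replicate 3 (0.0232) and under quantile normalization (0.0446). Without untreated replicate 2 that difference was 0.31 (adjusted p = 0.195). Against untreated cells AXL differed by 0.45 at 0.32 µM (adjusted p = 0.832), or 0.10 without untreated replicate 2, and by 0.29 at 48 h (adjusted p = 0.502). The effects of 0.63 µM at 48 and 24 h differed by -0.74 (SE 0.310, adjusted p = 0.354), and 1.25 µM differed from 0.63 µM by -0.37 (adjusted p = 0.458).

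CD44 (ENSG00000026508; chromosome 11, 35138870 to 35232402, plus strand, protein coding) encodes the hyaluronan receptor CD44 and was the most abundant of the 8 in TPM, with a mean of 217 over 18 libraries. At 24 h the libraries held 200, 225 and 234 TPM untreated, 178, 212 and 212 TPM at 0.32 µM, 246, 243 and 372 TPM at 0.63 µM and 126, 142 and 178 TPM at 1.25 µM. At 48 h they held 204, 191 and 219 TPM untreated and 217, 220 and 293 TPM at 0.63 µM. The 1.25 µM group was the lowest of the 6 groups and the 0.63 µM group at 24 h the highest, with replicate 3 far above the other libraries of its group.

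CD44 was lower at 1.25 than at 0.63 µM by 0.93 on the log2 scale (-0.93, SE 0.181, adjusted p = 0.0165), with 149 ± 26.5 against 287 ± 74.0 TPM. It was the 1 member called between these doses, where 1.51% of all genes were called. That call was lost without 0.63 µM replicate 3 (0.0559) or 1.25 µM replicate 1 (0.0634). Against untreated cells the difference was 0.36 at 0.63 µM (adjusted p = 0.321) and -0.57 at 1.25 µM (adjusted p = 0.0539). The value at 1.25 µM passed after rescaling without the chromosome 21 transcripts (0.0410), with a filter at 5 TPM (0.0427), without 1.25 µM replicate 3 (0.0409) and with the replicate number as a block (0.0117), although the numbers did not pair the libraries. At 48 h the difference was 0.24 (adjusted p = 0.508).

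SOX9 (ENSG00000125398; chromosome 17, 72121020 to 72126420, plus strand, protein coding) encodes a transcription factor of the neural crest. At 24 h it was at 9.99, 10.4 and 13.6 TPM in untreated cells, 7.87, 11.4 and 10.7 TPM at 0.32 µM, 15.6, 23.7 and 17.9 TPM at 0.63 µM and 20.5, 18.1 and 18.5 TPM at 1.25 µM. In the 48 h libraries it was at 14.1, 14.6 and 15.1 TPM in untreated cells and 12.7, 11.95 and 10.9 TPM at 0.63 µM. The 2 higher doses lay above untreated cells at 24 h, whereas at 48 h all 3 treated libraries lay below the untreated ones, as did 21.3% of all genes.

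SOX9 rose by 0.71 at 1.25 µM (SE 0.197, adjusted p = 0.0282), from 11.3 ± 1.96 to 19.0 ± 1.34 TPM. The call was lost without untreated replicate 1 (0.0874) or replicate 2 (0.0713) and without 1.25 µM replicate 1 (0.0841), replicate 2 (0.0560) or replicate 3 (0.0656). At 0.63 µM the difference was 0.70 (adjusted p = 0.0775) at 24 h, which passed without untreated replicate 3 (0.0488), and -0.28 (adjusted p = 0.468) at 48 h. Both times share no library, and the effects differed by -0.98 (SE 0.279, adjusted p = 0.173), so the test of the difference did not pass; 0.0335% of all genes were called in it, and 0 members.

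TGFBI (ENSG00000120708; chromosome 5, 136028895 to 136063818, plus strand, protein coding) encodes a secreted matrix protein induced by TGF-β. Its libraries at 24 h held 41.1, 45.4 and 52.3 TPM untreated, 52.2, 43.4 and 44.8 TPM at 0.32 µM, 47.0, 48.3 and 36.2 TPM at 0.63 µM and 28.3, 32.1 and 15.1 TPM at 1.25 µM. At 48 h they held 37.1, 39.2 and 39.97 TPM untreated and 27.8, 26.0 and 31.5 TPM at 0.63 µM. The 1.25 µM group and the treated group at 48 h lay below the untreated libraries of their time, and these groups overlapped each other. Without overlap, 13.7% and 21.3% of all genes were lower in these comparisons.

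TGFBI fell by 0.91 at 1.25 µM (SE 0.224, adjusted p = 0.0151), from 46.2 ± 5.66 to 25.2 ± 8.91 TPM. Without 1.25 µM replicate 3 the difference was -0.60 (adjusted p = 0.0615). At 48 h it was -0.44 (adjusted p = 0.278), and at 0.32 and 0.63 µM for 24 h 0.02 (adjusted p = 1.0) and -0.08 (adjusted p = 0.901). The difference of -0.83 between 1.25 and 0.63 µM (adjusted p = 0.0770) passed without 1.25 µM replicate 2 (0.0434).

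NT5E (ENSG00000135318; chromosome 6, 85449584 to 85495791, plus strand, protein coding) encodes CD73, the surface enzyme that turns AMP into adenosine. At 24 h it stood at 6.23, 8.83 and 17.9 TPM untreated, 7.73, 12.1 and 12.01 TPM at 0.32 µM, 15.1, 17.8 and 16.5 TPM at 0.63 µM and 20.8, 20.4 and 11.1 TPM at 1.25 µM. After 48 h it stood at 12.2, 10.0 and 24.3 TPM untreated and 11.8, 9.01 and 7.69 TPM at 0.63 µM. Replicate 3 was the high library of both untreated groups, and every group overlapped its neighbour in the order of means. The differences were 0.66 at 0.63 µM (SE 0.362, adjusted p = 0.367), 0.69 at 1.25 µM (adjusted p = 0.245) and -0.57 at 48 h (adjusted p = 0.401). Without untreated replicate 1 at 24 h the first and second of these were 0.35 and 0.39, without untreated replicate 3 they were 1.05 and 1.08, and without untreated replicate 3 at 48 h the last was -0.22.

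WNT5A (ENSG00000114251; chromosome 3, 55465715 to 55490539, minus strand, protein coding) encodes a ligand of Wnt signalling that does not act through β-catenin and had the lowest level of the 8, a mean of 4.17 TPM. At 24 h it was at 4.95, 3.51 and 4.99 TPM untreated, 5.28, 4.50 and 4.24 TPM at 0.32 µM, 2.87, 4.12 and 4.30 TPM at 0.63 µM and 2.06, 5.82 and 2.44 TPM at 1.25 µM. At 48 h it was at 5.29, 4.73 and 7.11 TPM untreated and 2.38, 4.08 and 2.37 TPM at 0.63 µM. Here the treated libraries lay below the untreated ones, as did 21.3% of all genes, with a difference of -0.78 (SE 0.301, adjusted p = 0.138). Over 16 alternatives it ran from -0.98 to -0.43. At 24 h the groups overlapped, and the differences at 0.63 and 1.25 µM were -0.20 (adjusted p = 0.778) and -0.39 (adjusted p = 0.460).

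**Figure D2:**
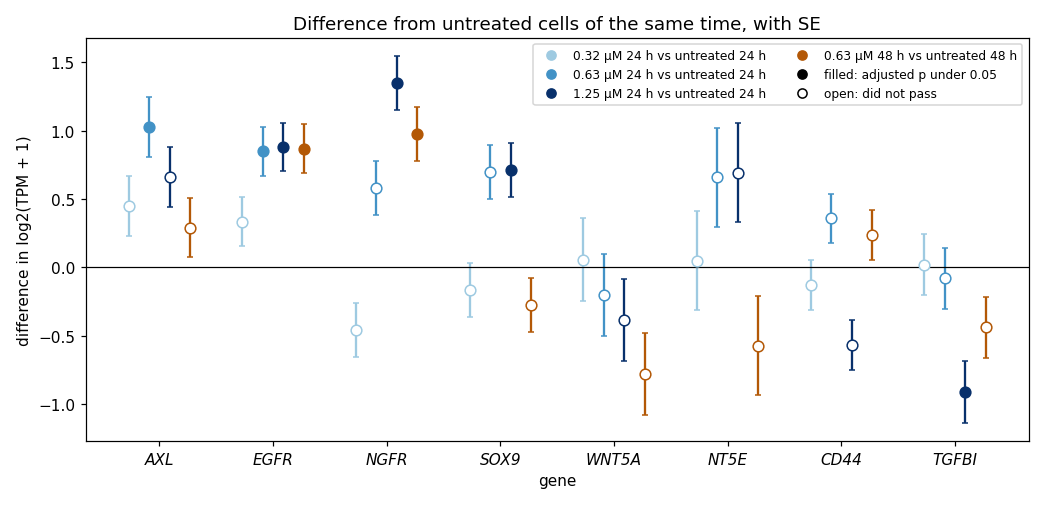
Difference from untreated cells of the same time in log2(TPM + 1) (vertical axis) for each gene (horizontal axis), with bars for the SE of the limma model; filled points had an adjusted p under 0.05. EGFR lies between 0.85 and 0.88 in the 3 comparisons where it passed, and SOX9 is at 0.70 and 0.71 at 24 h for 0.63 and 1.25 µM but at -0.28 at 48 h.

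In all, 5 of 8 members were higher without overlap at 0.63 µM for 24 h (AXL, NGFR, EGFR, SOX9 and CD44), and 0 were lower, beside 10.0% and 9.26% of all genes. At 1.25 µM 4 were higher and 2 lower, beside 12.4% and 13.7%, and at 48 h 3 were higher and 3 lower, beside 9.23% and 21.3%. Between untreated cells at 48 and 24 h limma called 0 members (0.0134% of all genes), and 1 had an unadjusted p under 0.05.

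GAS6, the ligand of AXL, was at 1.22 ± 1.05 TPM untreated and 2.88 ± 0.809 and 3.51 ± 1.94 TPM at 0.63 and 1.25 µM at 24 h (adjusted p = 0.247 and 0.101), and of the 3 measured genes of the TAM family and its ligands 0 passed. The neurotrophin receptor genes NTRK2 and NTRK3 were below the filter, with at most 0.11 and 1.44 TPM in any library.

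Of 9 measured EGFR ligands, ERBB receptors and inhibitors, 1 fell at 0.63 µM for 24 h, 2 rose and 2 fell at 1.25 µM, and 0 passed at 48 h. The shares of all genes called in these comparisons were 2.18%, 11.3% and 7.63%. TGFA, a ligand of EGFR, fell by 1.20 at 0.63 µM (adjusted p = 0.0242), from 5.73 ± 1.19 to 1.92 ± 0.561 TPM, and by 0.88 at 1.25 µM (adjusted p = 0.0321). HBEGF, another ligand, rose by 0.83 at 1.25 µM (adjusted p = 0.0343), as did ERRFI1, a feedback inhibitor of EGFR, by 0.89 (adjusted p = 0.0406). ERBB3, the receptor for neuregulin, fell by 1.06 (adjusted p = 0.0253). Each of these calls was lost without at least 1 library. The highest adjusted p was 0.120 for TGFA at 0.63 µM (without 0.63 µM replicate 3), and at 1.25 µM 0.122 for TGFA and 0.126 for HBEGF (without 1.25 µM replicate 3), and 0.151 for ERRFI1 and 0.0971 for ERBB3 (without 1.25 µM replicate 2).

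Among 14 measured receptors, secretion factors and partners of WNT5A, 0 passed at 0.63 µM for 24 h, 1 rose and 2 fell at 1.25 µM and 1 rose at 48 h. These counts stand beside 2.18%, 11.3% and 7.63% of all genes called. PORCN, the acyltransferase needed to secrete Wnt proteins, rose by 0.93 at 1.25 µM (adjusted p = 0.0242) and by 1.3 at 48 h (adjusted p = 0.00438), there from 7.86 ± 1.83 to 21.1 ± 5.80 TPM. VANGL1, a planar polarity protein, fell by 1.41 at 1.25 µM (adjusted p = 0.00223), and ROR1, a receptor of WNT5A, by 1.14 (adjusted p = 0.0228), to 0.667 ± 0.153 TPM. At 1.25 µM the calls of PORCN and ROR1 were lost without single libraries, with up to 0.10 without 1.25 µM replicate 3 and 0.0856 without untreated replicate 2. Of 6 measured relatives of SOX9 0 passed at any dose or time, SOX10 and SOX4 among them.

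Of 8 measured adenosine genes around NT5E 2 fell at 48 h, where 7.63% of all genes were called, and 0 passed at 24 h. SLC29A1, an adenosine transporter, fell by 1.11 (adjusted p = 0.0158) and ADORA1, an adenosine receptor, by 1.47 (adjusted p = 0.00876), to between 0.17 and 0.22 TPM. Their highest values with 1 library left out were 0.0684 and 0.0579, both without untreated replicate 2.

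Of 10 measured genes of hyaluronan and CD44 processing, 1 rose at 0.63 µM for 24 h, 1 rose and 3 fell at 1.25 µM, and 1 rose and 1 fell at 48 h. Over all genes, 2.18%, 11.3% and 7.63% were called there. MMP14, a membrane protease that cleaves CD44, rose by 1.36 at 0.63 µM (adjusted p = 0.0249), 1.07 at 1.25 µM (adjusted p = 0.0228) and 1.19 at 48 h (adjusted p = 0.0163). Its level went from 4.43 ± 1.09 to 13.0 ± 3.47 and 10.6 ± 3.17 TPM at 24 h, and from 2.67 ± 0.673 to 7.37 ± 1.40 TPM at 48 h. HMMR, a hyaluronan receptor that is also a spindle protein, fell by 1.89 at 1.25 µM (adjusted p = 0.00384) and by 1.26 at 48 h (adjusted p = 0.0481). EZR, which ties CD44 to actin, fell by 0.59 (adjusted p = 0.0222) and CEMIP2, a hyaluronidase, by 1.57 (adjusted p = 0.0278) at 1.25 µM. The MMP14 calls were lost without 0.63 µM replicate 3 (0.123), 1.25 µM replicate 2 (0.0944) and untreated 48 h replicate 2 (0.0836), that of HMMR at 48 h without each library (up to 0.160), that of EZR without untreated replicate 3 (0.0805) and that of CEMIP2 without 1.25 µM replicate 3 (0.102); other single libraries ended some of them too.

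Of 18 measured genes of TGF-β signalling around TGFBI, 2 rose at 0.63 µM for 24 h, 3 rose and 1 fell at 1.25 µM, and 2 rose and 1 fell at 48 h. Beside these counts, 2.18%, 11.3% and 7.63% of all genes were called. TGIF1, a repressor of SMAD activity, rose by 1.63 at 1.25 µM (adjusted p = 0.00146) and 1.33 at 48 h (adjusted p = 0.00761). SMAD3, which carries the TGF-β signal, fell by 1.23 (adjusted p = 0.0186) and 1.35 (adjusted p = 0.0143) in these comparisons, with up to 0.0736 without 1.25 µM replicate 3 and 0.0680 without 0.63 µM 48 h replicate 2. ITGA3, an integrin subunit, rose by 0.95 at 0.63 µM (adjusted p = 0.0491, and 0.176 without 0.63 µM replicate 3) and by 1.20 at 1.25 µM (adjusted p = 0.00420).

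Other markers of the same melanoma states moved in both directions. Of 34 measured markers of undifferentiated and invasive cells, 5 rose and 1 fell at 0.63 µM for 24 h, 6 rose and 6 fell at 1.25 µM, and 2 rose and 5 fell at 48 h, with medians of 0.20, -0.04 and -0.11. Over all genes, 2.18%, 11.3% and 7.63% were called, with medians of 0.00, -0.01 and -0.15. PLAUR, the urokinase receptor, rose by 2.26 at 1.25 µM (adjusted p = 0.0106), from 120 ± 69.2 to 496 ± 112 TPM. THBS1, a matrix glycoprotein, fell by 2.76 at 1.25 µM (adjusted p = 5.58e-06), from 73.6 ± 9.71 to 10.2 ± 2.73 TPM, and by 1.98 at 48 h (adjusted p = 0.000138). CAV1, the coat protein of caveolae, fell by 2.07 (adjusted p = 1.66e-07) at 1.25 µM and fell by 1.95 at 48 h (adjusted p = 4.02e-07), and these calls of THBS1 and CAV1 held in every alternative run. Looked up after their values were seen, calls at 0.63 µM for 24 h included CCN1 (2.02), FLNA (1.29), FOSL1 (1.06) and CDH13 (0.82) higher and POSTN (-1.59) lower. At 1.25 µM they included FGF2 (1.38), FLNA (1.37) and CDH13 (0.92) higher and POSTN (-2.03), NUAK1 (-0.98), LOXL2 (-0.95) and CDH2 (-0.89) lower. At 48 h they included CDH13 (1.02) higher and MMP2 (-2.01), S100A2 (-1.83) and POSTN (-1.31) lower. Between 1.25 and 0.63 µM limma called 5 genes of this list lower and 0 higher. CCN1 (-1.81, adjusted p = 0.0372) and FOSL1 (-0.85, adjusted p = 0.0345) were among those lower.

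Of 15 measured neural crest-like markers, 0 passed at 0.63 µM for 24 h, 1 rose and 3 fell at 1.25 µM and 3 fell at 48 h, with medians of -0.01, -0.23 and -0.43. The shares of all genes called were 2.18%, 11.3% and 7.63%, with medians of 0.00, -0.01 and -0.15. SLITRK6, a neuronal membrane protein, fell by 1.32 at 1.25 µM (adjusted p = 0.00791) and 1.73 at 48 h (adjusted p = 0.00155), and TFAP2A, a neural crest transcription factor, by 1.13 at 1.25 µM (adjusted p = 0.00425). NES, an intermediate filament of progenitor cells, fell by 1.32 at 1.25 µM (adjusted p = 0.0255) and by 1.3 at 48 h (adjusted p = 0.0351), with up to 0.110 without 1.25 µM replicate 3 and 0.144 without 0.63 µM 48 h replicate 3. CNN3 fell by 1.55 at 48 h (adjusted p = 0.00581). PRNP was the 1 gene that rose, by 1.01 (adjusted p = 0.00397), named after its value was seen. NGFR, a marker of the same state, rose in both of these comparisons.

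**Figure D3:**
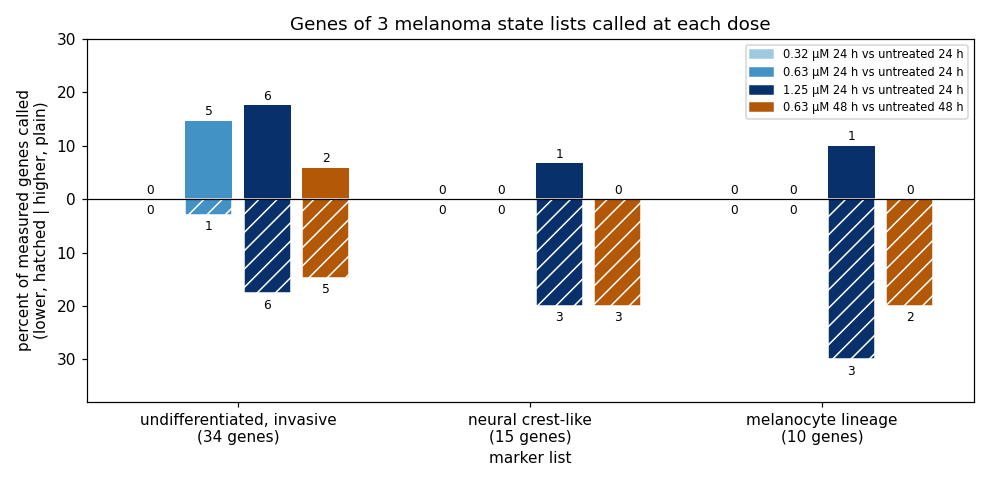
Percent of the measured genes of 3 marker lists (horizontal axis) that limma called higher (plain bars, above 0) or lower (hatched bars, below 0) at each dose and time; the numbers are gene counts. The undifferentiated list has 6 genes in each direction at 1.25 µM, the neural crest-like list 1 higher and 3 lower. Not drawn are the shares of all genes called in either direction. They were 0.0268%, 2.18% and 11.3% at 0.32, 0.63 and 1.25 µM for 24 h and 7.63% at 48 h.

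MITF, the transcription factor that holds the melanocyte program, fell by 1.76 at 48 h (SE 0.299, adjusted p = 0.00171), from 15.9 ± 0.792 to 4.07 ± 1.07 TPM, in every alternative run. At 1.25 µM for 24 h it fell by 0.96 (adjusted p = 0.0498), with 14.2 TPM in replicate 3 against 6.99 and 4.14 TPM in the others. That call held in 4 of 18 alternatives, and the adjusted p reached 0.215 without 1.25 µM replicate 2. At 0.63 µM for 24 h the difference was -0.67 (adjusted p = 0.251). Of 10 measured melanocyte lineage genes 1 rose and 3 fell at 1.25 µM, and 2 fell at 48 h, with medians of 0.56 and -0.17. Over all genes, 11.3% and 7.63% were called there, with medians of -0.01 and -0.15. Without overlap, 3 of the 10 were higher and 2 lower at 1.25 µM, beside 12.4% and 13.7% of all genes. SOX10 differed by 0.66 at 1.25 µM (adjusted p = 0.232). CDK2, a gene of this list, fell by 0.85 at 1.25 µM (adjusted p = 0.00246) and by 1.26 at 48 h (adjusted p = 0.000115). BCL2A1, a survival gene of the same list, went the other way and rose by 1.96 at 1.25 µM (adjusted p = 0.00182). It was listed at 0 in the 3 untreated libraries at 24 h and lay between 1.2 and 4.19 TPM at 1.25 µM.

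The ratio of AXL to MITF in TPM, used as a summary of melanoma state, was 4.03 ± 1.12 in untreated cells at 24 h, 5.85 ± 0.803 at 0.32 µM, 13.5 ± 2.93 at 0.63 µM and 14.6 ± 8.19 at 1.25 µM (SD, n = 3). In the 48 h groups the ratio was 5.23 ± 0.609 without and 26.1 ± 7.13 with 0.63 µM. Each treated group lay above the untreated group of its time, with 5.17 to 6.74 at 0.32 µM above 2.75 to 4.79, while the 1.25 µM group spread from 7.10 to 23.3. At 48 h MITF passed and AXL did not. No test was made of the ratio.

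**Figure D4:**
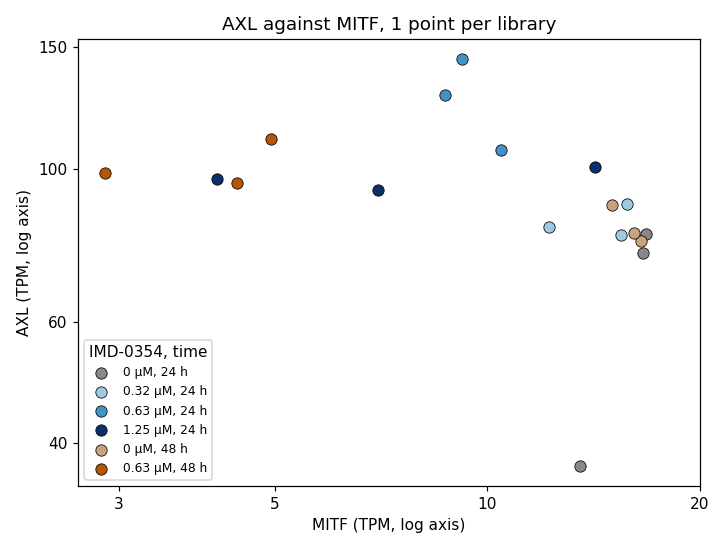
AXL against MITF in TPM, both on log axes, with 1 point per library coloured by dose and time. The 3 libraries at 0.63 µM for 48 h hold 2.87 to 4.93 TPM of MITF at 95.5 to 110 TPM of AXL, and 1 untreated library stands low at 37.1 TPM of AXL.

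Over the 18 libraries, which share 6 group means, Pearson's r of log2(TPM + 1) between members was 0.70 for AXL and EGFR, 0.74 for SOX9 and NT5E, 0.60 for NGFR and EGFR and -0.66 for EGFR and TGFBI. Searched over 7630 genes with a symbol and a mean of at least 5 TPM, the gene most like EGFR was FTH1 (r = 0.93), followed by TMEM158 (0.92) and TRIB3 (0.91). The gene most like NGFR was FTSJ1 (0.93), that most like AXL PTPN23 (0.92), and that most like TGFBI HJURP (0.93), a centromere factor, followed by MND1 and CDCA3 (both 0.91). For SOX9 it was PXN (0.86), for WNT5A METTL21A (0.83), for CD44 HSD11B1L (0.82) and for NT5E ERRFI1 (0.82). These values describe the libraries and carry no test.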

How the data were processed

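The values are gene-level TPM of 18 A375 libraries in a merged table that the authors deposited. The submitters' processing notes name DESeq2, RSEM 1.3.1, STAR 2.7 and cutadapt 1.18 without saying what each did, and the genome build is not given in the sources used here. TPM holds no counts, so no count test was made. TPM divides by transcript length although 3' libraries give about 1 tag per transcript, so levels between genes are approximate. Symbols came from a table that matched 56558 identifiers and named 41209, and coordinates from GENCODE 29 (GRCh38, 56996 matched). A gene was kept if 3 or more libraries reached 1 TPM. From the deposited TPM, log2(TPM + 1) was computed and a linear model of 6 group means was fitted with limma 3.58.1 in R 4.3.3 (12 residual and 4.16 prior degrees of freedom, mean-variance trend, two-sided, Benjamini-Hochberg over all genes, threshold 0.05). The fit was tested on simulated data. Members and lists were chosen with earlier results of these data known. Named list genes were up to 4 per list that passed against untreated cells with the largest change, or the 2 with the largest mean TPM where none passed. Promoters came from RefSeq (GRCh38.p14). Alternatives changed the pseudocount, filter, scaling, variance trend, fitted groups, replicate block and libraries. Some genes of the lists are counted but not reported here by name.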

Additional observations from a re-analysis of the deposited data

Results flagged for a closer look

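SOX9 differed from untreated cells with opposite signs at the same dose. At 0.63 µM all 3 treated libraries lay above the untreated ones at 24 h and all 3 lay below them at 48 h. Without overlap, 10.0% of all genes were higher at 24 h and 21.3% lower at 48 h. The SOX9 differences were 0.70 at 24 h (limma, adjusted p = 0.0775) and -0.28 at 48 h (adjusted p = 0.468), and neither passed. Over 16 alternatives the one at 48 h ran from -0.33 to -0.083. The effect at 48 h minus that at 24 h was -0.98 on the log2(TPM + 1) scale (limma, SE 0.279, adjusted p = 0.173), which did not pass. Over 24 alternatives that difference ran from -1.13 to -0.77, with adjusted p from 0.107 to 0.330. Untreated cells were at 11.3 ± 1.96 TPM at 24 h and 14.6 ± 0.471 TPM at 48 h, a difference of 0.35 that did not pass (limma, adjusted p = 0.692).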

How the results depend on the processing

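NGFR and EGFR at 48 h kept their calls in all 16 alternatives run. Fitting only the compared groups left 0 members called at 0.63 µM for 24 h (main 2), at 1.25 µM (main 4) and between 1.25 and 0.63 µM (main 1). The same kind of fit at 48 h called 324 of all genes higher and 780 lower, beside 291 and 849 in the main fit. Why calls were lost at 24 h was not tested. Without a variance trend the counts of members were 1 and 0 for 0.63 µM and for 1.25 against 0.63 µM. The latter became 2 with a pseudocount of 5 TPM, a filter at 5 TPM or quantile normalization. Without 1 library they ran from 0 to 3 at 0.63 µM and from 0 to 2 for 1.25 against 0.63 µM. Of alternatives chosen after seeing the data, leaving out untreated 24 h replicates 2 and 3, the libraries least correlated with their group, gave 0 members at 0.63 µM and 1 at 1.25 µM; this left 1 untreated library at 24 h, assumed to vary like the other groups, so fewer samples stand behind these counts. Leaving out untreated replicate 2 and 0.63 µM replicate 3 gave 0 at 0.63 µM; the cause was not tested.

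Signs turned for uncalled values near 0. For CD44 the effect at 48 h minus that at 24 h became 0.10 with median-of-ratios scaling, 0.048 with quantile normalization and 0.064 in the second added alternative, and untreated 48 against 24 h became 0.057 with quantile normalization and 0.032 in the first. In the first, WNT5A (-0.0730) and CD44 (0.0028) at 0.32 µM and TGFBI at 0.63 µM (0.081) also turned, and in the second WNT5A (-0.078) and NT5E (-0.033) at 0.32 µM, TGFBI at 0.63 µM (0.039) and SOX9 at 1.25 against 0.63 µM (-0.0185). With 1 library left out, the range crossed 0 at 0.32 µM for NT5E (-0.25 to 0.44), TGFBI (-0.060 to 0.11) and WNT5A (-0.078 to 0.13), at 0.63 µM for TGFBI (-0.16 to 0.048), between 1.25 and 0.63 µM for EGFR (-0.053 to 0.13), SOX9 (-0.11 to 0.17), NT5E (-0.11 to 0.31) and WNT5A (-0.54 to 0.038), and between the effects at 48 and 24 h for CD44 (-0.26 to 0.082) and EGFR (-0.072 to 0.12).

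Calls over all genes ran from 0 with only the compared groups to 490 without untreated replicate 3 at 0.63 µM for 24 h (main 326), from 171 to 1767 at 1.25 µM (main 1688), from 557 without 0.63 µM replicate 3 to 1272 at 48 h (main 1140), from 0 to 14 at 0.32 µM (main 4), from 0 to 398 between 1.25 and 0.63 µM (main 226), from 0 to 6 between untreated times (main 2) and from 0 to 24 for the difference between times (main 5). TPM keeps no depth, so what depth limits is unknown.

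Replicate numbers did not pair the libraries: 45 correlations of deviations between same-numbered libraries ran from -0.09 to 0.12, and in 0 of 15 group pairs were all 3 over 0.1. With the replicate block 2 members passed at 0.63 µM for 24 h and 2 at 48 h, and CD44 at 1.25 µM passed as well (-0.57, adjusted p = 0.0117).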
